A study of Mus musculus with 2 samples.

Results

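Il1a, Il1b, Tnf, Tnfaip3, Nfkbia, Nfkbiz, Nfkbid, Icam1, Cd83 and Gpr84 are the 10 genes described here, of 32285 genes in the count matrices. They were taken by symbol as inflammatory ligands, inhibitors of NF-kB and surface proteins whose genes NF-kB is known to control, and each matched 1 row. They were followed in 2 single-cell RNA libraries of the hippocampus of 4-week-old mice. One library came from Crlf3-mutant mice, which carry the L389P change in Crlf3 (cytokine receptor-like factor 3), and the other from wild-type mice, and no treatment is given for either. The 4 hippocampi behind a library, from 2 mice per genotype, were pooled when cells were isolated, with no map of cells to mice, so there are no replicates, and no difference below was tested. The tissue was dissociated enzymatically, cleared of debris and myelin and sorted for live cells, and transcripts were tagged at their 5′ end.

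IL-1 and TNF are secreted or shed by activated myeloid cells and signal through receptors that free NF-kB from its inhibitors in the cytoplasm. NF-kB then switches on ligands, adhesion molecules and its own inhibitors, so that the genes of the inhibitors are also targets, and this feedback ends the response. In the brain, microglia and the macrophages of its borders are the main sources of these ligands, and such genes also respond quickly to enzymatic dissociation.

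The mutant library kept 5275 cells with a median of 7385 UMIs (unique transcript tags) and the wild-type library 7109 cells with a median of 6193 UMIs. Cells were assigned one by one from detected marker genes, for example at least 6 of 12 markers for microglia, and fewer than the matching number for other types. Microglia numbered 3243 mutant and 4432 wild-type cells, border macrophages 21 and 66, astrocytes 499 and 785, and endothelial cells 796 and 802. Microglia held a median of 31763 mutant and 31249 wild-type CPM of summed microglial markers, and astrocytes and endothelial cells likewise stood far above all other types in their own markers. Border macrophages held 10415 mutant and 6818 wild-type CPM of their own markers beside 6030 and 7597 CPM of microglial ones, so that in the wild-type library the microglial sum was the higher one. CPM scales the UMIs of a gene to 1000000 UMIs in the class. Cells with 1 marker fewer than the gate or exactly as many numbered 23 mutant and 39 wild-type cells for microglia, 4 and 17 for border macrophages, 34 and 44 for astrocytes, and 3 and 3 for endothelial cells. The libraries shared 64 cell barcodes. Intervals below are 95% intervals of counting error only, exact for levels and shares and approximate for log2 ratios. A gene counts as higher or lower at 1.5 times on the log2 scale with 10 CPM added.

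Promoter sequences are shown for 3 ligand and 3 inhibitor genes, because all of these were found in microglia and are the signal and the brake of the same response. The stretches below run 5′ to 3′ on the strand of the gene, come from RefSeq on GRCm38.p6 and cover bases -60 to -1 before a RefSeq start, except for Nfkbid, where bases -230 to -171 of a RefSeq start are shown. For Tnfaip3 and Nfkbid this start differs from that of the gene positions given below. Both of these stretches therefore lie inside the gene as positioned there. Capitals mark the TATA box (TATAAA) in the 3 ligand genes and a match to the kappaB consensus, the sequence NF-kB binds, in the 3 inhibitor genes.
Il1a, chr2:129309973-129310032, minus strand: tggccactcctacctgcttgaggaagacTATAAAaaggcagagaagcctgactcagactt
Il1b, chr2:129371140-129371199, minus strand: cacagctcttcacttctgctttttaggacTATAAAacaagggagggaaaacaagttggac
Tnf, chr17:35202008-35202067, minus strand: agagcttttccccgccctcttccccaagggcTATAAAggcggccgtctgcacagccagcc
Nfkbia, chr12:55492648-55492707, minus strand: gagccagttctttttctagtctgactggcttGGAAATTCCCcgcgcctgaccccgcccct
Tnfaip3, chr10:19015411-19015470, minus strand: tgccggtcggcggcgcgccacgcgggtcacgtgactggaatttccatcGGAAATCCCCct
Nfkbid, chr7:30422176-30422235, plus strand: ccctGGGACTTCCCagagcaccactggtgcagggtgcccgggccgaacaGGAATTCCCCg

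Both strands of the 250 bases before each RefSeq start were searched. Of 32851 such RefSeq windows, 7.25% held the kappaB consensus, 12.4% held TATAAA and 6.75% held the AP-1 site TGANTCA. The 8 genes with a window had 11 windows. Of these 11 windows, 3 held the kappaB consensus (Tnfaip3, Nfkbia and Nfkbid), 4 held TATAAA (Il1a, Il1b, Tnf and Tnfaip3) and 2 held the AP-1 site (Il1a and Tnfaip3). In the ligands the TATA box began 32 bases before the start in Il1a, 31 in Il1b and 29 in Tnf. The AP-1 letters of Il1a overlap no other motif searched. These are matches of letters, not sites shown to be bound. Nfkbiz and Cd83 had no window.

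Most UMIs of all 10 genes lay in microglia, and Nfkbia also passed the minimum in the 3 other classes. Of all Tnf UMIs in the cells kept, 98.5% of the mutant and 95.9% of the wild-type library lay in microglia. For Nfkbia these shares were 85.2% and 85.4%, with 10.4% and 8.38% in endothelial cells. Il1b was the gene with the lowest microglial share of the wild-type library, 89.2% of the mutant and 76.9% of the wild-type library, with 2.73% and 9.99% in border macrophages. A few cells with at least 3 of 6 markers of neutrophils, 8 mutant and 4 wild-type cells, held 1.66% and 1.37% of Il1b, and the cells with at least 3 of 6 markers of monocytes, 8 in each library, held 2.30% and 2.45%. The level of Il1b in these few cells was above that in microglia, with 882 mutant and 3105 wild-type CPM in the cells with neutrophil markers and 757 and 1232 CPM in those with monocyte markers. In these pools fewer cells of a type and less RNA per cell cannot be told apart where a share of a whole library is given.

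**Figure D1:**
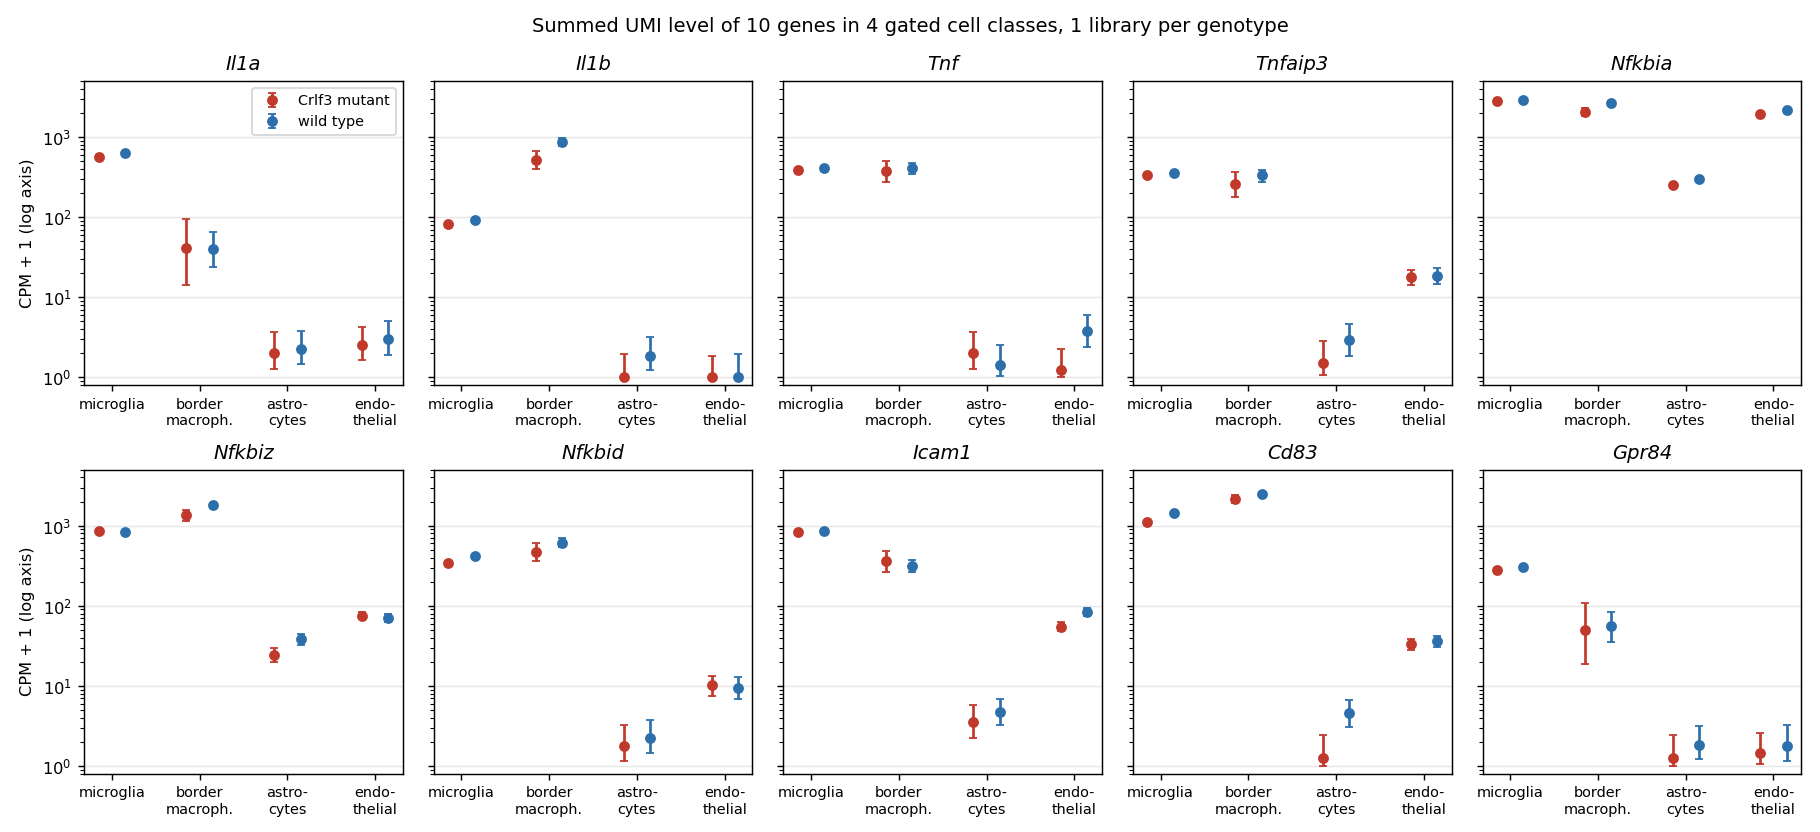
CPM + 1 on a log axis for the 10 genes in 4 cell classes, with the Crlf3 mutant library (red) left of the wild-type library (blue) and bars for exact Poisson 95% intervals. Il1a, Il1b, Tnf and Gpr84 lie at or below 2.80 CPM in astrocytes and endothelial cells of both libraries, while Nfkbia exceeds 250 CPM in all 4 classes.

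Among the ligands, Il1a (interleukin 1 alpha, a cytokine active without cleavage; chromosome 2, 129299610 to 129309972 of mm10, minus strand, next to Il1b) had 567 CPM in mutant microglia (558 to 577) and 624 CPM in wild-type microglia (615 to 633), a log2 ratio of -0.13 (-0.16 to -0.10). Il1b (interleukin 1 beta, made as a precursor that caspase 1 cleaves; chromosome 2, 129364570 to 129371139, minus strand) had 80.5 CPM in mutant and 91.2 CPM in wild-type microglia, a log2 ratio of -0.16 (-0.23 to -0.09). Tnf (tumour necrosis factor; chromosome 17, 35199381 to 35202007, minus strand) had 385 CPM in mutant and 409 CPM in wild-type microglia, a log2 ratio of -0.09 (-0.12 to -0.05). All 3 ligands were somewhat lower in the mutant library and none reached 1.5 times. With each cell thinned to 2000 UMIs, the log2 ratios of their levels were -0.15 for Il1a, -0.08 for Il1b and -0.05 for Tnf. Because mutant cells were deeper, shares of cells were compared after each cell was thinned to 2000 UMIs. Il1a was then found in 48.7% of mutant (46.9 to 50.4) and 49.8% of wild-type microglia (48.3 to 51.3), Tnf in 33.1% (31.5 to 34.8) and 31.8% (30.4 to 33.2), and Il1b in 5.33% (4.58 to 6.16) and 6.19% (5.49 to 6.94), so that at this depth the intervals overlapped for each. Without thinning these shares were 74.8% and 70.2% for Il1a, 56.3% and 52.2% for Tnf and 8.97% and 10.2% for Il1b. In endothelial cells, which should lack these ligands and held a median of 5256.5 mutant and 4527 wild-type UMIs against 7732 and 6337.5 in microglia, the thinned shares were 0.773% and 0.643% for Il1a, 0.129% and 0.514% for Tnf and 0 of 776 and 0 of 778 cells for Il1b. With cells thinned to 4000 UMIs instead, Il1b was found in 6.78% of mutant (5.90 to 7.74) and 8.92% of wild-type microglia (8.03 to 9.87). These intervals do not overlap, so that the overlap for Il1b depends on the depth. At 4000 UMIs Il1a was found in 66.6% of mutant and 67.4% of wild-type microglia, and Tnf in 46.6% and 47.6%.

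Among the inhibitors, Nfkbid differed most between the libraries and was lower in the mutant. Nfkbid (IkappaBNS, a nuclear member of the inhibitor family; chromosome 7, 30421732 to 30428746, plus strand) had 338 CPM in mutant microglia (331 to 345) and 415 CPM in wild-type microglia (408 to 423), a log2 ratio of -0.29 (-0.33 to -0.25). It was found in 39.9% of mutant (38.2 to 41.7) and 44.8% of wild-type microglia (43.3 to 46.3) after thinning. The libraries differed in the same direction for level and share, by less than 1.5 times. Nfkbia (IkappaB alpha, which holds NF-kB in the cytoplasm; chromosome 12, 55489410 to 55492647, minus strand) had 2780 CPM in mutant and 2903 CPM in wild-type microglia, a log2 ratio of -0.06 (-0.08 to -0.05). Tnfaip3 (A20, an enzyme that edits ubiquitin chains and ends TNF receptor signalling; chromosome 10, 19000910 to 19015657, minus strand) had 332 CPM in mutant and 357 CPM in wild-type microglia, a log2 ratio of -0.10 (-0.14 to -0.06). Nfkbiz (IkappaB zeta, a nuclear cofactor for a subset of NF-kB targets; chromosome 16, 55811375 to 55838899, minus strand) was alone above 0, with 859 CPM in mutant and 837 CPM in wild-type microglia, a log2 ratio of 0.04 (0.01 to 0.06). After thinning, Nfkbiz was found in 67.0% of mutant (65.4 to 68.7) and 61.3% of wild-type microglia (59.8 to 62.7) and Nfkbia in 92.5% and 89.8%, both higher in the mutant library, and Tnfaip3 in 41.4% and 41.2%. At the same depth of 2000 UMIs the log2 ratio of the Nfkbia level was -0.02 (-0.05 to 0.01), so that its lower level was not seen beyond counting error there.

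Of the surface proteins, Cd83 differed most. Cd83 (an immunoglobulin-family protein of activated myeloid and dendritic cells; chromosome 13, 43784775 to 43803132, plus strand) had 1125 CPM in mutant microglia (1112 to 1138) and 1450 CPM in wild-type microglia (1436 to 1464), a log2 ratio of -0.36 (-0.38 to -0.34). It was found in 68.9% of mutant (67.3 to 70.5) and 73.4% of wild-type microglia (72.1 to 74.7) after thinning. Of the 3232 genes measured in microglia, 0.186% had a lower log2 ratio than Cd83, and 0.619% a lower one than Nfkbid. Icam1 (the adhesion molecule that leukocyte integrins bind; chromosome 9, 21015985 to 21028817, plus strand) had 842 CPM in mutant and 854 CPM in wild-type microglia, a log2 ratio of -0.02 (-0.05 to 0.01). Gpr84 (a receptor for medium-chain fatty acids that inflammatory stimuli induce; chromosome 15, 103308235 to 103310612, minus strand) had 281 CPM in mutant and 305 CPM in wild-type microglia, a log2 ratio of -0.12 (-0.16 to -0.07). Icam1 was found in 69.0% of mutant and 65.2% of wild-type thinned microglia and Gpr84 in 29.5% and 30.5%. In these thinned cells the log2 ratio of the level was 0.06 for Icam1 and -0.03 for Gpr84.

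All 10 genes passed the minimum of 50 CPM and 30 UMIs in microglia, and 0 of 10 were 1.5 times higher (background 0.0619%) and 0 of 10 were 1.5 times lower (background 0.0619%) in the mutant library. Of the 10, 9 had a log2 ratio below 0, where 44.3% of all measured genes did, and their median was -0.11 where that of all measured genes was 0.01. The middle 90% of all measured genes ran from -0.11 to 0.13, and Cd83 and Nfkbid lay farthest outside it. Since the genes were chosen with earlier results of these data known, these counts are a description. Some genes tied to dissociation and to the chemokine response moved beside them. Ccl3 had 558 CPM in mutant and 813 CPM in wild-type microglia, Ccl4 1325 and 2000 CPM, and the heat shock gene Hspa1b 148 and 224 CPM. The immediate-early gene Fos differed less, with 4018 and 4261 CPM. The part of these genes in the lower Cd83 and Nfkbid was not tested.

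Of the 7 lists of other pathway genes, the list of other NF-kB targets held the 1 gene past 1.5 times in microglia. Of the 5 NF-kB subunit genes, all 5 were measured and 0 passed 1.5 times, with a median log2 ratio of 0.05. Nfkb1, which encodes the p105 precursor of p50, had 247 CPM in mutant and 222 CPM in wild-type microglia (log2 ratio 0.15), Nfkb2 had 55.9 and 50.5 CPM (0.12), and Rel had 246 and 237 CPM (0.05). Of 14 IL-1 family and processing genes 4 were measured and 0 passed, among them Casp1 with 53.5 and 50.9 CPM and the inflammasome sensor Nlrp3 with 220 and 213 CPM. Of 13 TNF receptor, shedding and adaptor genes 6 were measured and 0 passed, among them the sheddase Adam17 with 122 and 111 CPM. Of 17 Toll-like receptor genes and adaptors 7 were measured, of 9 IKK and TAK1 genes 3, and of 18 other inhibitors 13, and 0 of these passed. The other inhibitors included Trib1 with 131 CPM in mutant and 112 CPM in wild-type microglia (log2 ratio 0.20) and Socs3 with 500 and 543 CPM (-0.12). Of 28 other known NF-kB targets 13 were measured, 0 were higher (background 0.0619%) and 1 was lower by 1.5 times (background 0.0619%), the chemokine Ccl4 (log2 ratio -0.59), with Ccl3 at -0.53 and Cxcl2 at 48.2 mutant and 62.0 wild-type CPM (-0.31).

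Both libraries held cells with Xist but without Y-linked transcripts (Xist-only cells) and cells with the reverse (Y-only cells), which were taken apart within each library, since the labels give no sex. Cd83 had 1188 CPM in the Xist-only and 1121 CPM in the Y-only cells of mutant microglia, against 1365 and 1545 CPM in those of wild-type microglia. Nfkbid had 344 and 340 CPM in mutant against 393 and 444 CPM in wild-type microglia, Il1a 532 and 614 against 624 and 679 CPM, and Tnf 383 and 393 against 405 and 436 CPM. For these 4 of the 10 genes both mutant values lay below both wild-type values (background 15.6% lower), and for 0 of 10 both lay above (background 24.1% higher). The other 6 overlapped. Il1b ran in opposite directions, with 64.7 CPM in mutant and 99.4 CPM in wild-type Xist-only cells but 119 CPM in mutant and 90.2 CPM in wild-type Y-only cells. Nfkbia had 2791 CPM in mutant and 2660 CPM in wild-type Xist-only cells but 2811 and 3187 CPM in Y-only cells, and Nfkbiz had 833 and 795 CPM in Xist-only cells but 906 and 945 CPM in Y-only cells. The labels do not give the number of animals behind each kind of cell. With 2 mice in each pool and both kinds present, each kind would come from a single mouse, and these subsets are not replicates.

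**Figure D2:**
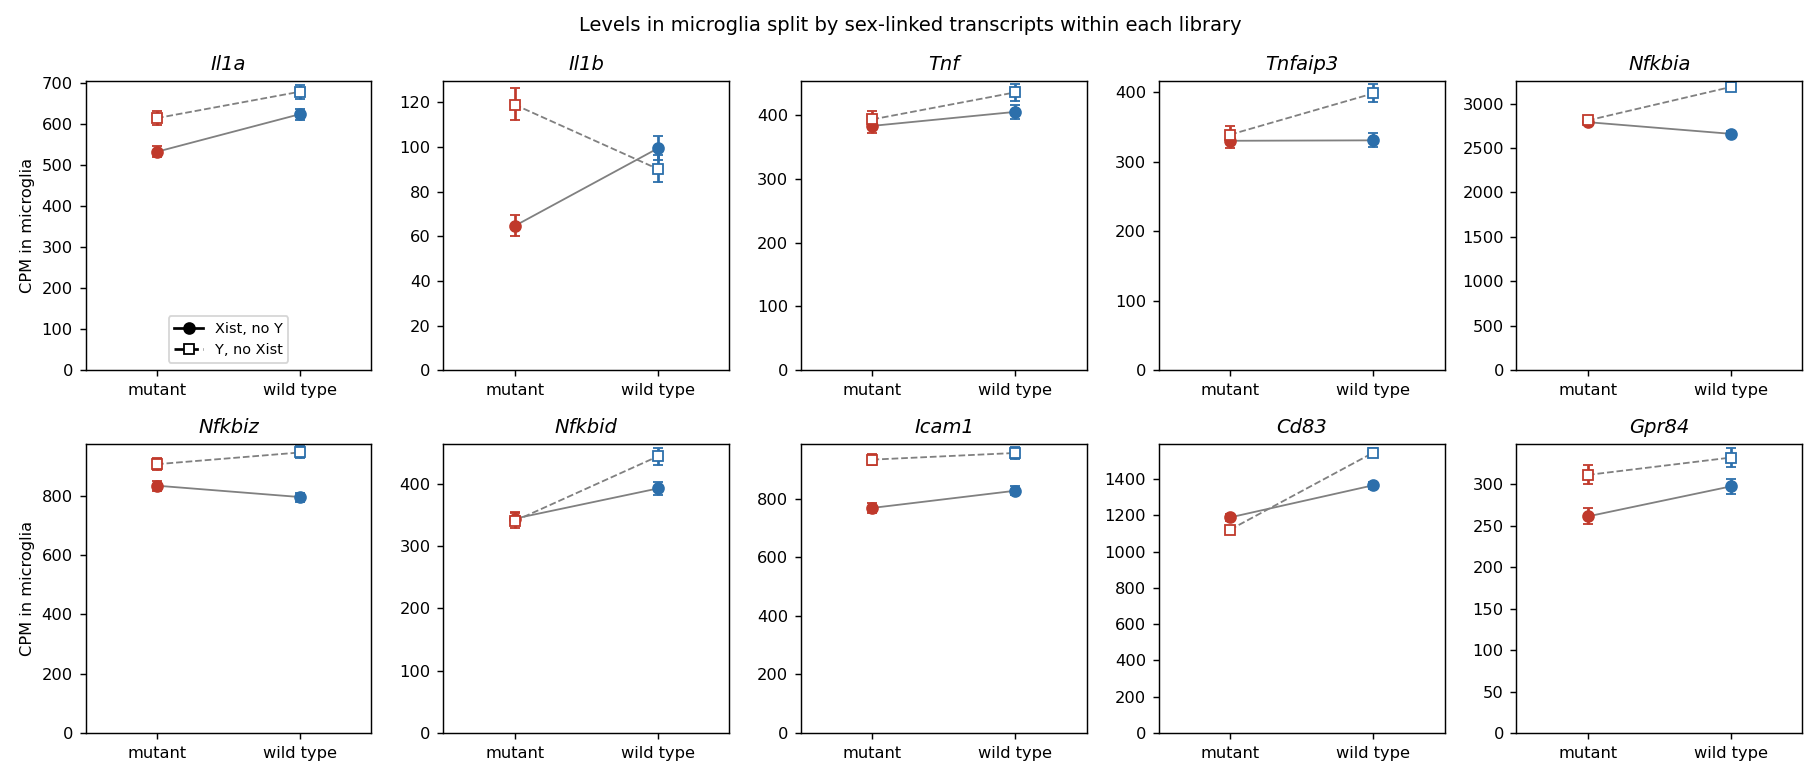
CPM in Xist-only (filled circles, solid line) and Y-only microglia (open squares, dashed line), mutant left and wild type right, with exact Poisson 95% intervals as bars and axes from 0. Cd83 and Nfkbid are lower in both mutant subsets, while the lines of Il1b cross.

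Cd83 was lower in the mutant library at every level of the chemokines Ccl3 and Ccl4, whose summed UMIs in the thinned cell gave 3 groups of microglia. Cells with 0 such UMIs made up 54.7% of mutant and 46.7% of wild-type microglia, cells with 1 to 4 made up 23.0% and 23.8%, and cells with 5 or more 22.3% and 29.5%. From the first group to the third, Cd83 had 804, 1180 and 1653 CPM in mutant and 1024, 1345 and 1976 CPM in wild-type microglia, with log2 ratios of -0.35 (-0.41 to -0.28), -0.19 (-0.27 to -0.10) and -0.26 (-0.33 to -0.19). With the groups weighted alike in both libraries its log2 ratio was -0.27, against -0.35 over all thinned cells. Weighted in this way, Nfkbid was at -0.16, Il1a at -0.10, Tnfaip3 at -0.07 and Nfkbia at -0.01. Il1b and Nfkbiz were at 0.09, Icam1 at 0.05, Tnf at 0.01 and Gpr84 at 0.001. Nfkbid had 285, 337 and 479 CPM in mutant and 326, 416 and 492 CPM in wild-type microglia, with log2 ratios of -0.19, -0.30 and -0.04 (-0.17 to 0.09), so that the libraries did not differ beyond counting error where chemokines were highest. Il1b had 25.6, 64.4 and 189 CPM in mutant and 42.2, 82.4 and 122 CPM in wild-type microglia, so that it was lower in the mutant library in cells without chemokine UMIs (log2 ratio -0.55, -0.83 to -0.27) and higher in cells with 5 or more (0.59, 0.37 to 0.81). Its level in the third group was 7.37 times that in the first in mutant and 2.90 times in wild-type microglia. An Il1b UMI was found in 2.96% of mutant and 4.36% of wild-type cells of the first group, and in 10.5% and 8.77% of the third. Il1b UMIs lie in few cells, and the intervals, which count UMIs, leave out differences between cells. Over the same groups Icam1 changed little, at 0.913 times in mutant and 0.868 times in wild-type microglia, and Nfkbia was at 1.05 and 1.10 times. Hspa1b, a sign of heat shock or dissociation stress, was lower in the mutant library in each group, with 127, 180 and 303 CPM in mutant and 266, 271 and 367 CPM in wild-type microglia. Its part in these values was not tested.

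**Figure D3:**
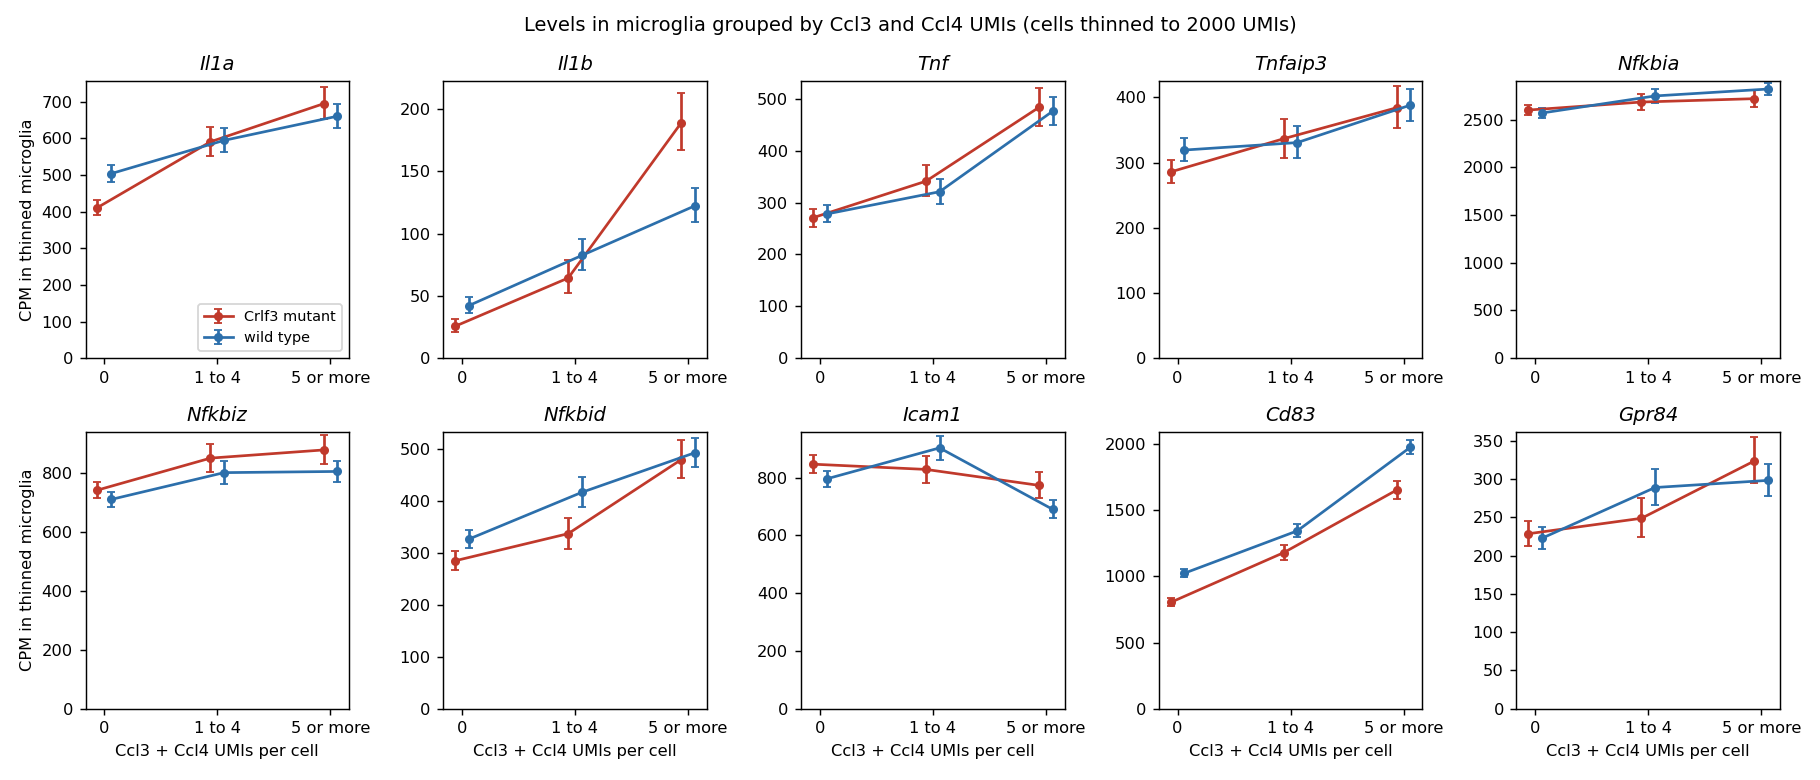
CPM of each gene in microglia thinned to 2000 UMIs, by the summed Ccl3 and Ccl4 UMIs of the cell (0, 1 to 4, 5 or more), for the mutant (red) and wild-type (blue) library with exact Poisson 95% intervals and axes from 0. The Cd83 line of the mutant library lies below that of the wild type in all 3 groups. Il1b, whose UMIs lie in few cells, is steeper in the mutant library.

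The 10 genes were found together in single microglia more often than their separate shares would give. In both libraries all 45 pairs were found in more cells than the product of their 2 shares, with a median ratio of 1.10 in mutant and 1.14 in wild-type microglia. Not every pair was above its product beyond counting error. The interval held the product for Icam1 with Cd83 in mutant microglia (46.3 to 49.8, product 47.5%). It also did so for Il1b with Nfkbia in wild-type microglia (5.14 to 6.56, product 5.56%). For other pairs, such as Il1a with Il1b in both libraries, the product lay below the interval. Cells of 1 library share its depth and handling, and these ratios describe each library. Il1a and Il1b, neighbours on chromosome 2, were found together in 3.89% of mutant (3.25 to 4.62) and 4.58% of wild-type microglia (3.98 to 5.25), against products of 2.59% and 3.08%. Tnf and Gpr84 were found together 1.30 and 1.44 times as often as the product, and Il1b and Gpr84 in 2.12% and 2.93% of cells, 1.35 and 1.55 times. The pair of Icam1 and Cd83 was the lowest in both libraries, at 1.01 and 1.03 times. Genes outside the 10 paired with them unequally. Each of the 10 was also above the product with the early-response gene Fos, at 1.02 to 1.06 times in mutant and 1.04 to 1.10 times in wild-type microglia, while with the homeostatic microglial gene Tmem119 they stood between 0.960 and 1.01 times in both libraries. Il1b with Ccl4 reached 1.72 and 1.36 times and with Hspa1b 0.715 and 0.644 times. Pairs of genes drawn from the whole table were not compared.

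**Figure D4:**
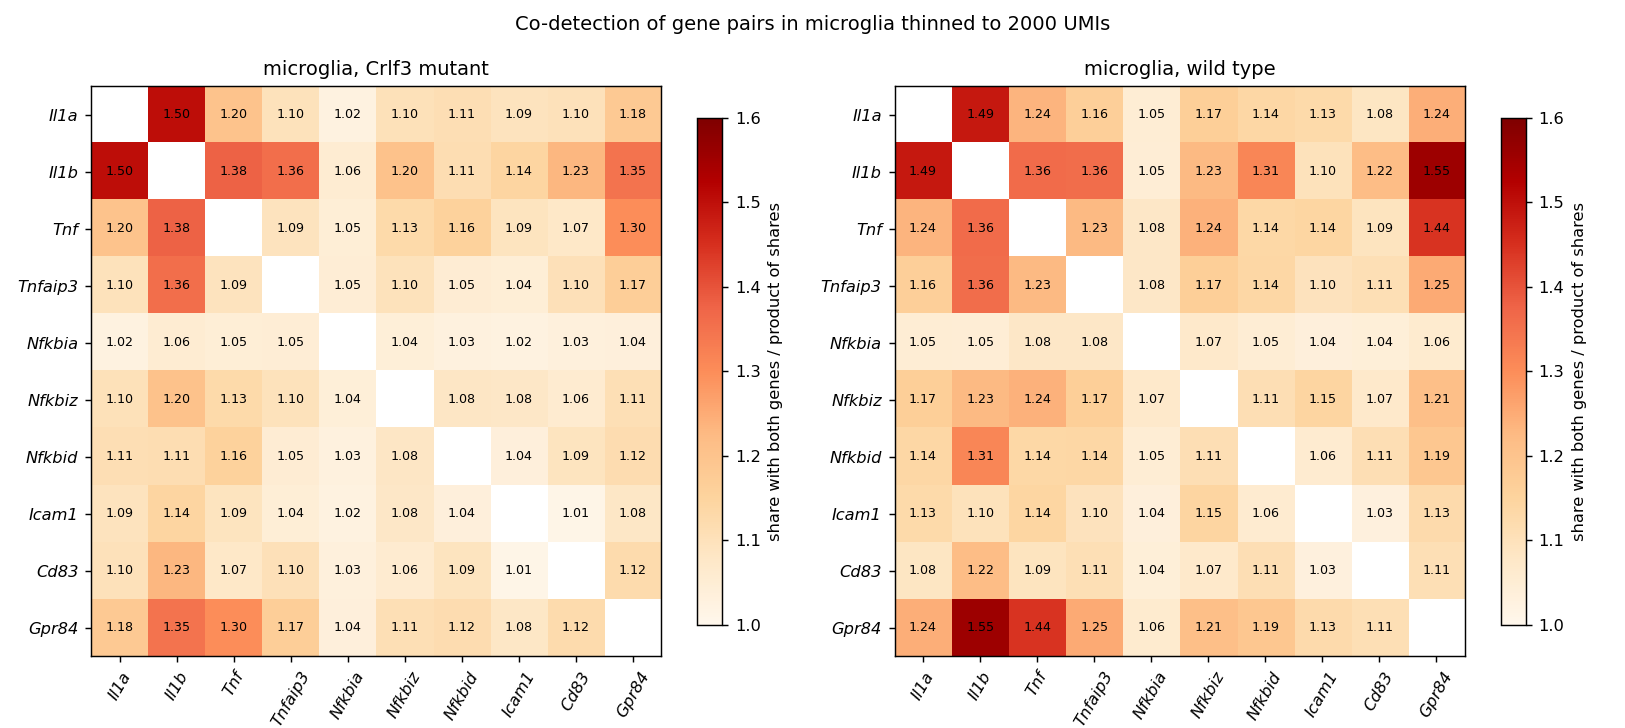
Share of microglia with at least 1 UMI of both genes divided by the product of the 2 single shares, for the 45 pairs in 3210 mutant cells (left) and 4364 wild-type cells (right), each thinned to 2000 UMIs. Il1a with Il1b is the highest in the mutant and Il1b with Gpr84 in the wild-type library, and the pairs of Nfkbia lie between 1.02 and 1.08 in both.

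Per thinned microglia a median of 5 of the 10 genes was found in both libraries. None was found in 1.37% of mutant and 1.90% of wild-type microglia, and 8 or more in 8.47% and 11.1%. In endothelial cells the median was 1 gene, which was mostly Nfkbia, and in astrocytes it was 0.

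**Figure D5:**
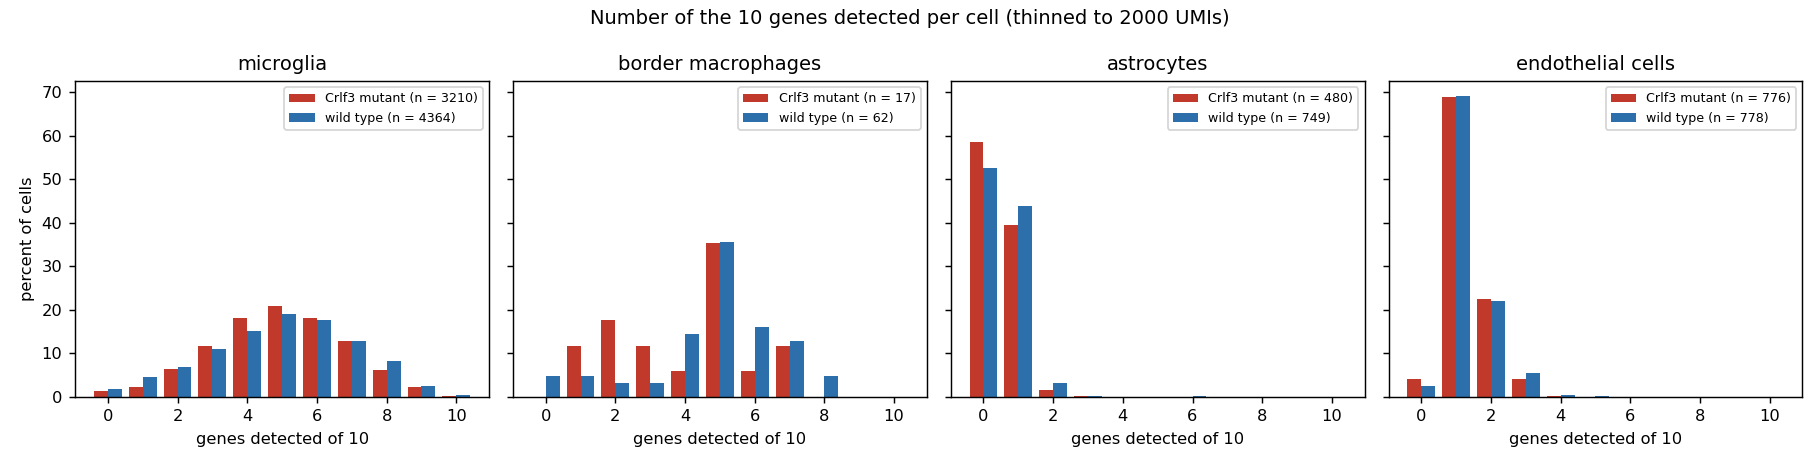
Percent of cells by the number of the 10 genes found in a cell thinned to 2000 UMIs, mutant (red) left of wild type (blue), in 4 cell classes. Microglia centre on 5 genes, 58.5% of mutant and 52.6% of wild-type astrocytes have none, and the border macrophage bars rest on 17 mutant and 62 wild-type cells.

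Il1b was held by few cells. The 1% of microglia richest in it, 33 mutant and 45 wild-type cells, held 54.2% and 44.7% of its microglial UMIs, against 14.2% and 14.3% for Tnf and 4.15% and 4.24% for Nfkbia in their own richest 1%. The richest single cell held 98 Il1b UMIs in the mutant and 79 in the wild-type library. Without the 5% of microglia with the most UMIs of the 10 genes, the log2 ratio of Il1b was -0.35 in place of -0.16. In the thinned data, 171 mutant and 270 wild-type microglia had an Il1b UMI, and these held 2.30 and 2.20 times as much Il1a as the rest, 1.71 and 2.17 times as much Gpr84 and 1.70 and 1.46 times as much Cd83. Nfkbia was at 1.03 and 1.13 times. They held 0.803 and 0.835 times as much Tmem119. Mrc1, a marker of border macrophages, was at 2.11 and 1.77 times in the cells with Il1b, on 7 mutant and 12 wild-type UMIs, and Pf4, another, had 1 UMI in them in each library, against 1 mutant and 8 wild-type UMIs in the rest. The part of border macrophage RNA in these values was not tested. S100a9 of neutrophils and Ly6c2 of monocytes had 0 UMIs in the cells with Il1b, but also at most 1 UMI in the other microglia of a library, so that they do not tell the cells apart.

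In the cells gated as border macrophages Il1b stood at a higher level than in microglia, with 521 CPM in mutant (401 to 665) and 865 CPM in wild-type border macrophages (777 to 960). Which border they came from is not known here. All 21 mutant and 66 wild-type cells of this gate also held at least 10 UMIs of 15 homeostatic microglial genes. The log2 ratio was -0.72 (-1.10 to -0.34), which made Il1b the 1 gene of the 8 that passed the minimum to be lower by 1.5 times (background 19%), and 0 of 8 were higher (background 2.27%). It was found in 6 of 21 mutant and 33 of 66 wild-type cells, before thinning. The mutant value rests on 64 UMIs, of which 1 cell held 32.8%, and all 10 genes had a median log2 ratio of -0.26 where that of all measured genes in these cells was -0.20. Without the 5% of cells with the most UMIs of the 10 genes, 19 mutant and 62 wild-type cells, the log2 ratio was -0.32 (-0.71 to 0.07), and with the looser gate (26 and 80 cells) it was -0.33. The lower border macrophage and higher microglial marker sums of the wild-type cells, given above, moved beside it, and their part was not tested. Il1a (5 mutant and 16 wild-type UMIs) and Gpr84 (6 and 22) did not pass the minimum. Cd83 had 2174 CPM in mutant (1921 to 2450) and 2496 CPM in wild-type border macrophages (2344 to 2654), Nfkbia 2060 and 2688 CPM and Nfkbiz 1351 and 1811 CPM. The others ran from 260 to 472 CPM in mutant and from 315 to 613 CPM in wild-type border macrophages.

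The order of the classes was not the same for all 10 genes. Il1b, Nfkbiz, Nfkbid and Cd83 were higher in border macrophages than in microglia of the same library, with intervals that did not overlap. Il1a, Icam1 and Gpr84 were higher in microglia in the same way, with Il1a at 40.7 mutant and 39.4 wild-type CPM in border macrophages. For Tnf and Tnfaip3 the intervals of the 2 classes overlapped in both libraries. Nfkbia was higher in microglia than in border macrophages in both libraries, and its intervals in border macrophages and endothelial cells overlapped in the mutant library alone.

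In endothelial cells, where Icam1 arms the vessel wall for leukocytes, Icam1 had 54.1 CPM in mutant (47.5 to 61.3) and 82.1 CPM in wild-type cells (73.4 to 91.5), a log2 ratio of -0.52 (-0.73 to -0.31). This is short of 1.5 times, and 0 of the 3 genes that passed the minimum (Nfkbia, Nfkbiz and Icam1) were lower (background 0.0282%) or higher (background 0%) by that much. With 1 CPM added in place of 10, or with cells thinned to 2000 UMIs, Icam1 was past 1.5 times, at -0.59 and -0.64. Of the 3550 genes measured in endothelial cells, 0.0282% had a lower log2 ratio than Icam1. It was found in 7.47% of mutant (5.72 to 9.56) and 9.90% of wild-type endothelial cells (7.89 to 12.2) after thinning, so that the intervals of the shares overlapped. In Xist-only cells Icam1 had 44.6 CPM in mutant and 70.4 CPM in wild-type endothelial cells, but in Y-only cells 74.3 and 76.2 CPM, a log2 ratio of -0.03 (-0.42 to 0.36). The lower level was therefore not seen in both kinds of cell. Nfkbia had 1959 CPM in mutant and 2155 CPM in wild-type endothelial cells (log2 ratio -0.14, -0.18 to -0.09), and in both kinds of cell the mutant value lay below both wild-type values (background 16.9% lower). Nfkbiz had 74.6 and 69.6 CPM (0.09, -0.11 to 0.29), with both mutant values above both wild-type values in those subsets (background 19.3% higher). Cd83 (32.3 mutant and 35.2 wild-type CPM), Tnfaip3 (16.7 and 17.6 CPM) and Nfkbid (9.13 and 8.41 CPM) were below the minimum. Hspa1b had 557 CPM in mutant and 718 CPM in wild-type endothelial cells, and its part in the lower Icam1 was not tested. Endothelial cells with an Icam1 UMI, 58 mutant and 77 wild-type thinned cells, held 1.90 and 2.69 times as much Nfkbiz and 1.27 and 1.32 times as much Nfkbia as the rest. Tnfaip3 was at 2.95 and 4.55 times on 5 mutant and 8 wild-type UMIs, and Nfkbid at 2.06 and 1.82 times on 2 UMIs in each. Cd83 went the other way, at 0.485 and 0.875 times on 2 mutant and 5 wild-type UMIs. Some markers of vessel segments differed with this split and others little. Vwf, high in veins, was at 1.74 and 1.76 times, but Slc38a5 was at 1.01 and 1.28 times and Mfsd2a at 0.920 and 0.787 times. Rgcc was at 0.936 and 0.675 times, and Nr2f2 at 1.38 and 2.68 times on 2 mutant and 5 wild-type UMIs. Gkn3 had 1 UMI in mutant and 0 in wild-type cells with Icam1, and was found in 2.65% and 2.00% of the rest. The adhesion gene Vcam1 had 14 UMIs in mutant and 2 in wild-type cells with Icam1, found in 5.17% and 2.60% of them. The arterial gene Bmx had 0 in both, but was found in only 2.51% and 1.28% of the rest. Their part in the Icam1 difference between the libraries was not tested.

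Among pathway genes, endothelial Adam17 had 102 CPM in mutant and 74.2 CPM in wild-type cells (log2 ratio 0.41) and Gadd45b 216 and 172 CPM (0.32). Of the 7 lists, 0 measured genes passed 1.5 times in endothelial cells, and the 2 measured NF-kB subunit genes were Nfkb1 with 63.2 and 53.5 CPM and Rela with 89.3 and 89.5 CPM.

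In astrocytes Nfkbia alone passed the minimum, with 252 CPM in mutant (237 to 269) and 302 CPM in wild-type astrocytes (287 to 318), a log2 ratio of -0.25 (-0.36 to -0.14). It was found in 38.5% of mutant (34.2 to 43.1) and 41.8% of wild-type astrocytes (38.2 to 45.4) after thinning. Nfkbiz had 23.3 CPM in mutant (18.8 to 28.6) and 37.0 CPM in wild-type astrocytes (31.8 to 42.9), below the minimum, and Nfkbia was not past 1.5 times (background 0.489% higher and 0.19% lower). In the Xist-only and Y-only subsets both mutant values of Nfkbia lay below both wild-type values (background 16.6% lower). Of the 18 other inhibitors 8 were measured in astrocytes, with 3 above 0, 5 below and a median log2 ratio of -0.05. Of the 8, 1 was lower by 1.5 times (background 0.19%), Socs3 with 61.8 CPM in mutant and 105 CPM in wild-type astrocytes, and 0 were higher (background 0.489%). Zfp36, which destabilises cytokine mRNA, had 144 and 196 CPM (-0.42), and its relative Zfp36l1 had 589 and 464 CPM (0.34).

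Microglial RNA in the other classes was small. The 15 homeostatic microglial genes reached 0.245% of their microglial level in mutant and 0.325% in wild-type astrocytes, and 0.288% and 0.360% in endothelial cells. Scaled by these shares, microglial RNA would give 6.80 mutant and 9.44 wild-type CPM of Nfkbia in astrocytes, and the measured levels were 37.1 and 32.0 times as high. Nfkbiz was 11.1 and 13.6 times as high there, and in wild-type astrocytes the other 8 genes held the scaled value within their interval, as they did in mutant astrocytes except for Cd83, whose single UMI was below it. In endothelial cells Nfkbia was 244 mutant and 206 wild-type times as high, Icam1 22.3 and 26.7 times, Tnfaip3 17.4 and 13.7 times, Cd83 9.95 and 6.74 times and Nfkbid 9.37 and 5.62 times. Il1a, Il1b, Tnf and Gpr84 were within their intervals of the scaled value in endothelial cells of both libraries. Il1b had 0 UMIs in 796 mutant and 802 wild-type endothelial cells, which by the limit of 3 counts allows a share of cells with a UMI of up to 0.377% and 0.374%, and by the exact interval up to 0.462% and 0.459%.

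Over microglia, the genes with the pattern most like that of Nfkbia were Zfp36, Junb, Fos, Egr1 and Ier2, with correlations of 0.45, 0.40, 0.35, 0.33 and 0.30 over 3210 mutant cells and 0.50, 0.49, 0.44, 0.47 and 0.41 over 4364 wild-type cells. Those of Cd83 were Nfkbia, Ccl4, Zfp36, Ccl3 and Tnfaip3 (0.20 to 0.27 in mutant and 0.23 to 0.35 in wild-type cells). Those of Tnf were Nfkbia, Gpr84, Il1a, Ier3 and Ppp1r15a (0.14 to 0.22 and 0.14 to 0.28). For Il1b the nearest were Il1a, Cd83, Lyz2, Cd14 and Apoe, at 0.16 or less, which in counts this sparse is no finding. The cells share a library and a depth of 2000 UMIs, and 5156 genes were compared for each.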

How the data were processed

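The reads went through Cell Ranger 6.1.1 with an mm10 reference, per the labels' protocols, and the submitters' processing notes list Partek without a role. What the authors deposited are UMI counts, not normalized, summing to 43103469 in the mutant and 51328178 in the wild-type library. Barcodes were kept from 500 genes and 1000 UMIs upward and up to 10% mitochondrial UMIs (5353 mutant and 7246 wild-type), and doublets called by Scrublet (scanpy 1.11.5, expected rate 0.06; 78 and 137 cells) were removed. Doublets it missed remain.

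The files used here carry no cell types. A cell was assigned where it held at least as many of a class's markers as the gate asks (6 of 12 for microglia and astrocytes, 5 of 10 for border macrophages, 7 of 13 for endothelial cells) and less than that share of every other class's. Border macrophages could hold up to 10 of 12 microglial markers. The gate thresholds were set after the files were read. UMIs were summed per class and given as CPM; the log2 ratio is mutant over wild type with 10 CPM added, and its interval comes from Poisson counting. Sums carry exact Poisson and shares exact Clopper-Pearson 95% intervals, which leave out differences between animals, dissociations and cells. The ratio was tested on simulated data. Gene positions come from GENCODE on GRCm38.

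The 10 genes, the gene lists and the alternatives were chosen with earlier results of these data known. Named beside them are, of each list and class, up to 3 measured genes with the largest absolute log2 ratio, of which some are given, and the 5 genes most alike to Il1b, Tnf, Nfkbia and Cd83, by the lower of the 2 libraries' Pearson correlations of log2(1 + UMIs). Hspa1b, Fos, Tmem119, S100a9, Ly6c2, Mrc1, Pf4, Vwf, Slc38a5, Mfsd2a, Nr2f2, Gkn3, Rgcc, Vcam1 and Bmx were added by hand. The split of endothelial cells by Icam1 was added after levels had been seen.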

Additional observations from a re-analysis of the deposited data

Results flagged for a closer look

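Within microglia 3 of the 10 genes ran in opposite directions in Xist-only and in Y-only cells. The log2 ratio of Il1b, mutant over wild type, was -0.55 in Xist-only and 0.36 in Y-only cells. That of Nfkbia was 0.069 and -0.18, and that of Nfkbiz was 0.067 and -0.061. These differences between the kinds of cell were not tested, since each comes from 1 library per genotype. Il1b UMIs lie in few cells, with 50% of them in 28 mutant and 56 wild-type microglia.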

How the results depend on the processing

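With 1 library per genotype the data limit every ratio to counting error, and border macrophages, with 21 mutant cells, carry the widest intervals. In microglia Il1a, Tnf, Tnfaip3, Nfkbid, Cd83 and Gpr84 kept a log2 ratio below 0 under all 14 alternatives (Cd83 -0.46 to -0.20, Nfkbid -0.37 to -0.18). Il1b, Nfkbia, Nfkbiz and Icam1 took the other sign under 1, 1, 1 and 2 of them, Icam1 when cells were thinned (0.06) or averaged (0.03). Over the 10 genes the microglial median of -0.11 was -0.063 with cells thinned to 2000 UMIs, -0.063 as a mean of per-cell CPM, and -0.14 in both the Xist-only and the Y-only cells. The border macrophage median of -0.26 was 0.18 in Xist-only cells (2 mutant and 7 wild-type cells). The astrocyte median of -0.12 was -0.48 with 1 CPM added and -0.29 with Leiden clusters in place of the gate. The endothelial median of -0.05 was -0.43 with those clusters. Of the 10 genes, 1 passed the minimum in astrocytes and 3 in endothelial cells. These medians therefore rest mostly on genes with few UMIs, where the CPM added weighs heavily. The cause of the shifts was not tested. With genes of at least 10 UMIs in place of the minimum, more genes were tested and those past 1.5 times numbered 7 higher and 7 lower in microglia (2 and 2 before), 480 and 1124 in border macrophages (35 and 293), 86 and 25 in astrocytes (18 and 7) and 5 and 13 in endothelial cells (0 and 1). Endothelial Icam1 stayed below 0 under all 15 alternatives (-0.64 to -0.03). Over all classes, 474 of the log2 ratios of single genes under the alternatives stayed within the counting interval of the reported value and 106 did not. Of the shares of cells taken without thinning or thinned to 4000 UMIs, 69 stayed within the interval of the share at 2000 UMIs and 91 did not. Border macrophage Il1b fell short of 1.5 times when centred on the median of all genes (-0.52), when thinned (-0.57) and in the 2 settings given above. No paired analysis was possible because each genotype has 1 library.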

Other observations

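Mural cells, the pericytes and smooth muscle of vessels (145 mutant and 122 wild-type cells), had 372 CPM of Nfkbia in the mutant and 449 CPM in the wild-type library, and 114 and 80.2 CPM of Nfkbiz. Neuron-lineage cells (185 and 145 cells) had 74.0 and 75.5 CPM of Nfkbia. In choroid plexus epithelium (148 and 430 cells) Nfkbia had 28.0 and 37.1 CPM. Il1b had 0 mutant UMIs in each of these classes, and 0, 1 and 6 wild-type UMIs in mural cells, the neuron lineage and the choroid plexus.

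In border macrophages, among the pathway lists, Ccl4 had 488 CPM in mutant and 1796 CPM in wild-type cells, the survival gene Bcl2a1d 32.6 and 140 CPM, and Nlrp3 326 and 513 CPM, while Vcam1 had 1180 and 648 CPM. These rest on 21 mutant and 66 wild-type cells.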
